A study of Mus musculus with 20 samples.

Results

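The 9 genes described here carry bile acids through the intestinal epithelium and sense them there. They were chosen by name: Nr1h4 and Nr0b2 (nuclear receptors), Slc10a2 (uptake), Fabp6 (binding in the cytosol), Slc51a, Slc51b, Abcc3 and Abcb11 (export) and Fgf15 (a secreted hormone). Each was found on the array through the gene name of the scanner files, older names included, among 31473 gene names. Of the 9 genes, 8 exceeded background clearly (the scanner's well-above-background call) on 3 or more of the 18 arrays compared and entered the fit, which held 21457 genes. The ninth, Nr0b2, was well above background on 1 of those arrays.

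Transcripts were measured in organoids from the proximal colon of male mice of about 40 days, on 20 single-colour Agilent arrays. The mice behind the EV, BRAF and selected organoids carried 1 copy of a BrafV600E allele that Cre can activate (Braf+/LSL). EV organoids received the lentiviral backbone without Cre and still carry the silent allele. BRAF organoids received Cre by lentivirus and were profiled 5 months after the oncogene was induced. Selected organoids were organoids with active BrafV600E chosen for their ability to grow without niche factors of the stem cell, that is in base medium. Each of the 3 types had lines 1, 2 and 3, and each line was profiled after 48 h in the medium named ENSW and after 48 h in base medium. Organoids were maintained with EGF and with conditioned media for Noggin, Wnt3a and R-spondin. Organoids labelled wild type gave 1 array per medium and were described without a test. The labels number the lines but do not say whether each came from its own mouse, and each line is a single culture per type.

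Bile acids are made from cholesterol in the liver, released into the gut and mostly taken back up. The sodium-dependent transporter Slc10a2 brings them across the apical membrane, Fabp6 binds them inside the cell, and the heterodimer of Slc51a and Slc51b passes them across the basolateral membrane. Nr1h4, the bile acid receptor FXR, is a ligand-activated transcription factor that in ileum and liver induces Fgf15, Nr0b2, Fabp6, Slc51a, Slc51b and, in liver, the canalicular export pump Abcb11. Active uptake is best known from the terminal ileum, and the colon is known to take up part of what the ileum leaves.

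Promoter sequences in the RefSeq tables (GRCm38.p6) were found for 7 of the 9 genes, with 250 bases before the start of transcription. The 5 sequences below, 5′ to 3′ on the gene's strand, are all those that held a match to a motif searched for. Capitals mark the matches.
Nr1h4: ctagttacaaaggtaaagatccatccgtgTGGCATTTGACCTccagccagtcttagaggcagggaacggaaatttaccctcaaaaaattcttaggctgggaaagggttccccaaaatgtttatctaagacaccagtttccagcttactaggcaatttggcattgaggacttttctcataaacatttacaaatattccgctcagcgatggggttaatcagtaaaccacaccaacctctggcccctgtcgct
Slc10a2: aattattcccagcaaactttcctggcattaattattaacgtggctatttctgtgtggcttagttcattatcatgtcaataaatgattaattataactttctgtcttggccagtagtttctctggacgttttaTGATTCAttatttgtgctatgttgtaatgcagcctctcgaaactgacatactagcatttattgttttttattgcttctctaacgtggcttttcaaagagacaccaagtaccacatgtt
Slc51b: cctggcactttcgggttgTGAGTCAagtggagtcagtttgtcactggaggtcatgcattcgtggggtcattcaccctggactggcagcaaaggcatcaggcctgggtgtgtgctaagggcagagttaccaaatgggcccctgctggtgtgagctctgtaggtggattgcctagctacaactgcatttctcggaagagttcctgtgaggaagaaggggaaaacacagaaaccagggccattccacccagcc
Abcb11: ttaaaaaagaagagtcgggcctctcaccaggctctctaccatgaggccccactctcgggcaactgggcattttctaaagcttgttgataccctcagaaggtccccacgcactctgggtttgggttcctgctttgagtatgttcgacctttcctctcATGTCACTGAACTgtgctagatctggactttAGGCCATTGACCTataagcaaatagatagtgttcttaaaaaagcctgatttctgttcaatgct
Fabp6: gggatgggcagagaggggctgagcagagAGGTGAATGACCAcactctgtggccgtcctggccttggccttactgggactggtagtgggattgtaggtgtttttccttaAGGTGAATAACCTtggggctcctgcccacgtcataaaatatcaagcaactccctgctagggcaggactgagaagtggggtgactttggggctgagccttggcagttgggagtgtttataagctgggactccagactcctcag
The Nr1h4 window is chr10:89506659-89506908, minus strand, that of Slc10a2 is chr8:5105288-5105537, minus strand, that of Slc51b is chr9:65422774-65423023, minus strand, that of Abcb11 is chr2:69342617-69342866, minus strand and that of Fabp6 is chr11:43601563-43601812, minus strand. The motif of FXR, an inverted repeat spelled AGGTCA, any base, TGACCT, was searched on both strands with up to 2 mismatches and matched in 0.959% of the 32851 promoter windows of the table. In Abcb11 it matched as AGGCCATTGACCT at positions -63 to -51 from the start with 1 mismatch and as ATGTCACTGAACT at -94 to -82 with 2. In Fabp6 it matched as AGGTGAATGACCA at -222 to -210 and as AGGTGAATAACCT at -142 to -130, each with 2 mismatches. The HNF4 motif (AGGTCA, any base, AGGTCA, up to 2 mismatches, 3.24% of windows) matched in Nr1h4 at -221 to -209 on the opposite strand, printed here as TGGCATTTGACCT. The AP-1 motif (TGANTCA, no mismatch, 6.75% of windows) matched in Slc10a2 as TGATTCA at -118 to -112 and in Slc51b as TGAGTCA at -232 to -226. The windows of Slc51a and Nr0b2 held no match to these motifs or to the LRH-1 motif TCAAGGTCA (no mismatch, 0.387% of windows). The letters AGGTCA are common to the FXR, HNF4 and LRH-1 motifs, and none of the matches listed overlapped. A match is a run of letters, and no binding was measured in these samples.

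Levels are log2 values from which the array's 75th percentile was subtracted, so that 0 is a bright spot by the standard of its array. They compare samples for 1 probe, not genes with each other. Between 59.6% and 65.2% of the spots of an array were well above background. Of 8 epithelial markers, 7 were well above background on all 18 EV, BRAF and selected arrays and Cdx1 on 15, while of 11 stromal, blood and endothelial markers Col1a1 and Cdh5 were so on 0, Col3a1 on 1, Pdgfra on 2 and the other 7, Ptprc and Pecam1 among them, on all 18. The colon markers B4galnt2 and Car1 were well above background on all 18 arrays, Mptx1 on 2 and the distal colon genes Hoxb13, Hoxd12 and Hoxd13 on 0. Of 12 small-intestine markers, Mgam and Apoc3 were so on all 18 arrays, Sis on 13, Slc5a1 on 11, Lct and Cps1 on 0 and the other 6 on 3 to 6. EV organoids shared no slide with BRAF or selected organoids, so in comparisons with EV the effect of slide cannot be told apart from that of type. Both media of a line always lay on 1 slide. The fit reported here compared group means and did not pair the media of a line. That pairing was used in an alternative fit, with the culture as a random block. With bulk RNA, fewer cells that express a gene and less of its RNA per cell cannot be told apart.

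**Figure D1:**
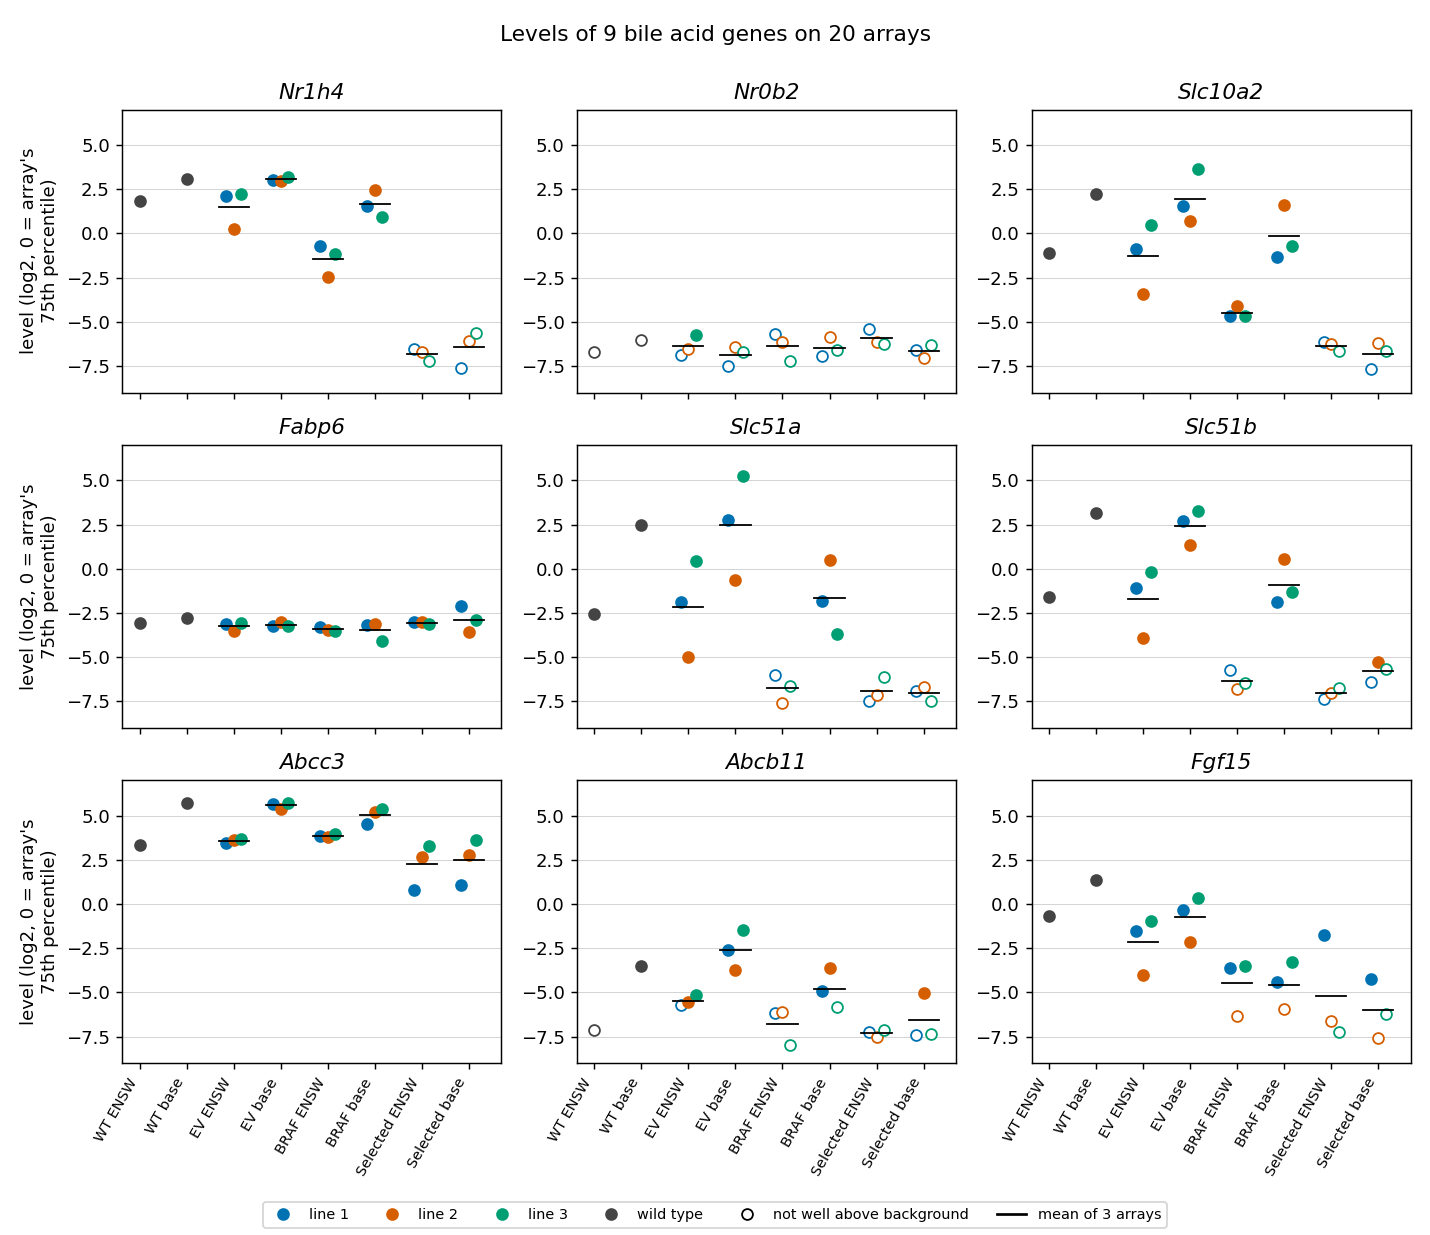
Level of each of the 9 genes (log2, with 0 at the 75th percentile of the array) on the 20 arrays, by organoid type and medium, with 1 point per array, coloured by line, and a bar for the mean of 3 arrays. Open points were not well above background. All 6 selected arrays lie at the bottom for Nr1h4 (-7.62 to -5.64), while Fabp6 stays between -4.10 and -2.13 on the 18 EV, BRAF and selected arrays.

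Nr1h4 was high in EV organoids, lower in BRAF organoids and not well above background in selected organoids in either medium. In ENSW medium its level in EV lines 1, 2 and 3 was 2.11, 0.23 and 2.21, and in base medium it was 3.02, 2.97 and 3.21. In BRAF lines 1, 2 and 3 it was -0.69, -2.46 and -1.14 in ENSW medium and 1.57, 2.47 and 0.94 in base medium. The selected lines read -6.53, -6.72 and -7.23 in ENSW medium and -7.62, -6.06 and -5.64 in base medium, and none of these 6 arrays was well above background. No EV array overlapped a BRAF array of the same medium, and every selected array lay below every other array. By group mean the order was EV in base medium (3.07 ± 0.13, SD, n = 3), BRAF in base medium (1.66 ± 0.77), EV in ENSW medium (1.52 ± 1.11), BRAF in ENSW medium (-1.43 ± 0.92) and the selected groups. BRAF organoids in base medium and EV organoids in ENSW medium lay within their spread of each other. The probe lies at chr10:88917222-88917281 on the minus strand of mm9, as the files give it.

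Nr1h4 rose in BRAF organoids on base medium, by 3.09 ± 0.62 (SE) on the log2 scale (adjusted p = 0.0265, limma with Benjamini-Hochberg adjustment over all genes, as for every adjusted p here), with 2.26, 4.93 and 2.08 in lines 1, 2 and 3. Leaving out 1 array ended that call for BRAF line 2 in ENSW medium (adjusted p = 0.143) or base medium (0.136) and for BRAF line 3 in ENSW medium (0.0551) or base medium (0.0665), and with slide as a fixed term it was 0.0508. In EV organoids the difference between media was 1.55 ± 0.62 (adjusted p = 0.0565), higher in base medium in 3 of 3 lines, and the adjusted p was 0.0238 with the culture and 0.0489 with slide as a random block, 0.0076 with the normexp background correction and 0.0235 with the authors' deposited values. In ENSW medium the gene was lower in BRAF than in EV organoids by 2.95 on the log2 scale (SE 0.62, adjusted p = 0.0137). That call was lost without EV line 1 (0.0723), EV line 3 (0.0684) or BRAF line 2 (0.0785) in ENSW medium. In base medium the BRAF minus EV difference was -1.41 ± 0.62 (adjusted p = 0.0957). It was called with normexp (-1.41, 0.0151), with the authors' deposited values (-1.28, 0.0444) and without both arrays of BRAF line 2 (-1.82, 0.0473).

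In selected organoids Nr1h4 was at least 325-fold lower than in EV organoids in ENSW medium (adjusted p = 3.6e-06) and at least 701-fold lower in base medium (adjusted p = 1.7e-07). Such a bound sets the mean of the bright group against the lowest signal that counted as well above background on the dim arrays, or the dim probe itself where that was higher. It is not a confidence limit. Where all dim readings were the higher it equals the fitted fold, as for Nr1h4 in ENSW medium. These bounds hold for the background-subtracted signal, and other settings gave smaller differences with the call kept. In ENSW and base medium the log2 difference from EV organoids was -4.18 and -5.68 with normexp, which adds an offset of 50 to the signal, and -5.28 and -6.58 with the authors' deposited values. Against BRAF organoids it was at least 42.0-fold lower in ENSW medium (adjusted p = 6.2e-04) and at least 263-fold lower in base medium (adjusted p = 4.7e-06, with -4.27 under normexp and -5.30 in the authors' deposited values). The call against BRAF in ENSW medium was lost with normexp, where the difference was -1.78 (adjusted p = 0.0659), and the authors' deposited values gave -2.56. On the slide that held selected line 3 and BRAF line 1, the only slide with both types, the selected minus BRAF difference of Nr1h4 was -6.54 in ENSW medium and -7.21 in base medium. Nr0b2, the small partner receptor through which FXR represses genes in liver, read -7.50 to -5.41 on the 18 arrays and was well above background only in EV line 3 in ENSW medium, at -5.75. It was not tested.

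Slc10a2, the uptake transporter, followed the same order in a wider range, with high values in EV organoids on base medium. Its level in EV lines 1, 2 and 3 was -0.86, -3.45 and 0.50 in ENSW medium and 1.56, 0.70 and 3.63 in base medium. In BRAF lines it was -4.64, -4.11 and -4.68 in ENSW medium and -1.34, 1.60 and -0.70 in base medium. The selected lines read -6.16, -6.26 and -6.64 in ENSW medium and -7.64, -6.20 and -6.66 in base medium, none of them well above background. Within each of the EV and BRAF types, no array in ENSW medium reached the lowest array in base medium. EV and BRAF arrays overlapped in base medium, where BRAF line 2 lay above EV lines 1 and 2.

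Slc10a2 rose on base medium by 3.23 ± 0.95 in EV organoids (adjusted p = 0.0137), a call that was lost without EV line 2 in ENSW medium (0.0716) or EV line 3 in base medium (0.0806). It rose by 4.33 ± 0.95 in BRAF organoids (adjusted p = 0.0381), in 3 of 3 lines. The BRAF call was lost in 10 of the 18 fits that leave out 1 array, with the highest adjusted p, 0.178, without BRAF line 2 in base medium. These 10 arrays were line 1 of EV in both media, all 3 selected lines in ENSW medium (0.0530 to 0.0539) and all BRAF arrays but line 1 in base medium. It was also lost with normexp (2.17, adjusted p = 0.133), the authors' deposited values (0.0536), no filter (0.0528) and slide as a fixed term (0.0553). In selected organoids Slc10a2 was at least 34.0-fold lower than in EV organoids in ENSW medium (adjusted p = 0.0042) and at least 426-fold lower in base medium (adjusted p = 6.7e-06). The first of these was lost with normexp (-1.92, adjusted p = 0.108) and was -2.86 on the log2 scale in the authors' deposited values. The second kept its call, with differences of -4.62 and -5.65 in these alternatives, which are smaller than the bound. Against BRAF organoids in base medium it was at least 98.6-fold lower (adjusted p = 9.4e-04), with log2 differences of -2.68 and -3.63 in the same alternatives. In ENSW medium the BRAF minus EV difference was -3.21 ± 0.95 (adjusted p = 0.0598), and without EV line 2 in that medium it was -4.30 (adjusted p = 0.0143). Averaging both probes (0.0476), the culture as a random block (0.0477) or removing EV line 3 (0.0454) or BRAF line 2 (0.0394) in base medium also gave a call. In base medium it was -2.11 ± 0.95 (adjusted p = 0.106), and without BRAF line 2 in base medium -2.99 (adjusted p = 0.0364). The probe used lies at chr8:5083366-5083425 and a second probe at chr8:5086145-5086204, both on the minus strand of mm9. The files name the first after an older clone, and it was matched through that name. The second gave 3.25 for EV and 4.43 for BRAF organoids on base medium.

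Fabp6, the ileal bile acid binding protein, is the gene of the group that moved least. Its levels over the 18 arrays ran from -4.10 to -2.13, all well above background, with an SD of 0.39. EV lines 1, 2 and 3 read -3.15, -3.51 and -3.06 in ENSW medium and -3.22, -3.03 and -3.22 in base medium. BRAF lines read -3.28, -3.46 and -3.54 in ENSW medium and -3.17, -3.13 and -4.10 in base medium. Selected lines read -3.03, -3.00 and -3.10 in ENSW medium and -2.13, -3.57 and -2.92 in base medium. In base medium the 3 types overlapped, and in ENSW medium the selected lines lay just above the BRAF lines. No contrast was called. The 95% interval of base minus ENSW was -0.57 to 0.74 in EV organoids, and that of selected minus EV in base medium was -0.37 to 0.94.

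Slc51a, 1 subunit of the basolateral exporter, differed widely between lines of the same group. EV lines 1, 2 and 3 read -1.88, -5.01 and 0.45 in ENSW medium and 2.76, -0.64 and 5.23 in base medium. BRAF lines read -6.03, -7.59 and -6.64 in ENSW medium, where none was well above background, and -1.80, 0.51 and -3.69 in base medium, where all were. The selected lines read -7.46, -7.16 and -6.11 in ENSW medium and -6.89, -6.69 and -7.46 in base medium, none well above background. The base minus ENSW difference was alike in the EV lines, 4.64, 4.37 and 4.78. The EV groups still overlapped, as line 3 in ENSW medium (0.45) lay above line 2 in base medium (-0.64). BRAF line 2 moved most of the BRAF lines, with 8.11 against 4.23 and 2.95 in lines 1 and 3.

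With an SE from the spread between lines and no pairing of media, the rise of Slc51a in EV organoids was 4.59 ± 1.45 (adjusted p = 0.0198). It was lost without EV line 1 in base medium (0.0530), EV line 2 in ENSW medium (0.102) or EV line 3 in base medium (0.113), and without both arrays of EV line 1 (0.0892). For BRAF organoids the probe used gave a bound of at least 33.9-fold higher in base than in ENSW medium, which is not a confidence limit. The fit did not call this difference (adjusted p = 0.0882), and with the culture as a random block the adjusted p was 0.0039. The gene's second probe gave a log2 difference of 2.59, and the interval of the fit began at 1.99. Both are smaller than the bound, so the size of this rise is not sure. Selected organoids in base medium were at least 694-fold lower than EV organoids (adjusted p = 1.0e-04) and at least 40.3-fold lower than BRAF organoids (adjusted p = 0.0323). The first of these kept its call with log2 differences of -5.14 with normexp and -6.35 in the authors' deposited values, and the gene's second probe gave -7.49, all smaller than the bound. The call against BRAF was lost without selected line 1 (0.0772), 2 (0.0602) or 3 (0.0896) or BRAF line 2 (0.145) in base medium. It was also lost with normexp (-1.71, adjusted p = 0.387), the authors' deposited values (-2.51, 0.207), the mean of both probes (0.0512) and slide as a fixed term (0.215).

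In base medium the EV and BRAF groups overlapped for Slc51a, with BRAF minus EV at -4.56, 1.16 and -8.92 in lines 1, 2 and 3. The mean difference, -4.11 ± 1.45, was called lower in BRAF organoids (adjusted p = 0.0442). This call held without EV line 2 in either medium, EV line 3 in ENSW medium or BRAF line 2 in base medium, and was lost without any of the other 14 arrays, up to 0.205 without EV line 3 in base medium. In ENSW medium selected organoids were at least 26.0-fold lower than EV organoids (adjusted p = 0.0428). This call held without EV line 2 in either medium, EV line 3 in base medium, selected line 1 in base medium or any BRAF array in base medium, and was lost without any of the other 11 arrays, up to 0.176 without EV line 3 in ENSW medium. It was also lost with normexp (-1.49), the authors' deposited values (-2.36, adjusted p = 0.228), no filter (0.0555), the mean of both probes (0.0805) and slide as a random block (0.0748). In ENSW medium the BRAF minus EV difference was -4.61 ± 1.45 (adjusted p = 0.0734), and without EV line 2 it was -6.04 (adjusted p = 0.0277). The probe used lies at chr16:32475636-32475695 and a second probe at chr16:32475871-32475930, on the minus strand of mm9. The second gave 4.25 in EV and 2.59 in BRAF organoids for base minus ENSW, against 4.59 and 5.09 for the first. It gave -2.69 for selected minus EV in ENSW medium (against -4.77) and -3.53 for selected minus BRAF in base medium (against -5.36). Both, and the 2.59 for BRAF organoids between media, are smaller differences than the bounds given. For BRAF minus EV it gave -2.29 in ENSW medium (against -4.61) and -3.96 in base medium (against -4.11).

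Slc51b, the other subunit, moved as Slc51a did but with less spread, and it was called in more of the comparisons. EV lines 1, 2 and 3 read -1.10, -3.93 and -0.19 in ENSW medium and 2.71, 1.33 and 3.26 in base medium. BRAF lines read -5.73, -6.82 and -6.48 in ENSW medium, none well above background, and -1.89, 0.52 and -1.33 in base medium. Selected lines read -7.36, -7.03 and -6.73 in ENSW medium and -6.43, -5.27 and -5.67 in base medium, where line 2 alone was well above background. EV and BRAF groups overlapped neither between media nor with each other in the same medium.

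Slc51b rose on base medium by 4.17 ± 0.83 in EV organoids (adjusted p = 0.0011) and at least 43.5-fold in BRAF organoids (5.44 ± 0.83 in the fit, adjusted p = 0.0104). The EV call held in each of the alternatives that gave a value. The BRAF call was lost without BRAF line 2 in ENSW medium (0.0572) or base medium (0.0607), and with normexp, where the difference was 1.68 (adjusted p = 0.121). In ENSW medium BRAF organoids were at least 24.3-fold lower than EV organoids (adjusted p = 0.0061), also lost with normexp (-1.22, 0.158) and without both arrays of EV line 1 (0.0562), and in base medium lower by 3.33 on the log2 scale, -3.33 ± 0.83 (adjusted p = 0.0082). Selected organoids were at least 38.6-fold lower than EV organoids in ENSW medium (adjusted p = 0.0014, and -1.51 with 0.0940 under normexp). The authors' deposited values kept these 3 calls, with log2 differences of 2.79 for BRAF organoids between media and, in ENSW medium, -2.32 for BRAF and -2.43 for selected against EV organoids. In base medium selected organoids were lower than EV (adjusted p = 4.3e-06) and BRAF organoids (adjusted p = 0.0029, or 0.0766 with slide as a fixed term). As 1 of the 3 selected arrays there was well above background, the size depends on dim readings. The log2 difference from EV organoids was -8.22 in the fit, -5.81 in the authors' deposited values and -4.89 with normexp, and that from BRAF organoids was -4.89, -2.72 and -1.95. The probe lies at chr9:65260705-65260764, minus strand, mm9.

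Abcc3, a basolateral pump for bile acid and other conjugates, was well above background on every array, and selected line 1 stood apart. EV lines 1, 2 and 3 read 3.47, 3.62 and 3.66 in ENSW medium and 5.66, 5.35 and 5.72 in base medium. BRAF lines read 3.82, 3.78 and 3.96 in ENSW medium and 4.54, 5.18 and 5.36 in base medium. Selected lines read 0.81, 2.66 and 3.30 in ENSW medium and 1.09, 2.79 and 3.59 in base medium. Selected line 1 was lowest in both media by more than 1 log2 unit, and each selected line changed little between media (0.29, 0.14 and 0.29).

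Abcc3 rose on base medium in EV organoids by 1.99 ± 0.59 (adjusted p = 0.0140), in 3 of 3 lines. That call was lost without both arrays of EV line 1 (0.0836) or line 3 (0.0880). In BRAF organoids the 3 lines gave 0.72, 1.40 and 1.40, and their mean difference, 1.17 ± 0.59, was not called (adjusted p = 0.299, or 0.0290 with the culture as a random block). In base medium selected organoids were lower by 3.09 on the log2 scale than EV organoids, -3.09 ± 0.59 (adjusted p = 6.0e-04), and differed by -2.53 ± 0.59 from BRAF organoids (adjusted p = 0.0164). The call against BRAF was lost without selected line 1 (-1.83, adjusted p = 0.0586), BRAF line 2 (0.0631) or BRAF line 3 (0.0637) in base medium, and with slide as a fixed term (-1.20, adjusted p = 0.368). On the shared slide, selected line 3 differed from BRAF line 1 by -0.95 in base medium. The probe lies at chr11:94204612-94204671, minus strand, mm9.

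Abcb11, the bile salt export pump of the liver canaliculus, was well above background on 8 of the 18 arrays. In EV lines 1, 2 and 3 it read -5.69, -5.55 and -5.14 in ENSW medium, the first of them not well above background, and -2.61, -3.73 and -1.45 in base medium. BRAF lines read -6.17, -6.13 and -8.00 in ENSW medium, none well above background, and -4.93, -3.61 and -5.81 in base medium, the last not well above background. Of the 6 selected arrays only line 2 in base medium, at -5.01, was well above background, and the others read -7.52 to -7.11. The EV rise on base medium was 2.86 ± 0.74 (adjusted p = 0.0064, or 0.0633 without both arrays of EV line 3), with 0.94 under normexp and 1.36 in the authors' deposited values, and the BRAF difference was 1.98 ± 0.74 (adjusted p = 0.173, or 0.0229 with the culture as a random block). In base medium selected organoids, with 1 of 3 arrays well above background, were lower than EV organoids (adjusted p = 4.8e-04), by a size that depends on dim readings. The log2 difference was -3.99 in the fit, -1.63 in the authors' deposited values and -0.93 with normexp. The BRAF and EV groups overlapped there, with BRAF minus EV at -2.31, 0.12 and -4.35 in lines 1, 2 and 3. BRAF organoids differed from EV organoids by -2.18 ± 0.74 (adjusted p = 0.0369). In base medium, removing EV line 1 (0.0808), EV line 3 (0.164), BRAF line 1 (0.0930) or BRAF line 3 (0.127) ended that call, as did analyses with normexp (-0.61, 0.102; the authors' deposited values gave -1.22 and kept it), with no filter (0.0504) and with slide as a random block (0.0527). Selected minus BRAF in base medium was -1.80 ± 0.74 (adjusted p = 0.139), and without selected line 2 in base medium -2.59 (adjusted p = 0.0395). The probe lies at chr2:69076365-69076424, minus strand, mm9.

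Fgf15, the hormone by which the ileum signals to the liver to lower bile acid synthesis, was present in EV organoids in both media and lower in BRAF organoids on base medium. EV lines 1, 2 and 3 read -1.50, -4.01 and -0.97 in ENSW medium and -0.34, -2.13 and 0.35 in base medium. BRAF lines read -3.60, -6.31 and -3.48 in ENSW medium and -4.43, -5.95 and -3.30 in base medium, with line 2 not well above background in either. Selected line 1 read -1.74 and -4.27 in ENSW and base medium. Selected lines 2 and 3 read -6.64 and -7.21 in ENSW medium and -7.58 and -6.20 in base medium, none well above background. All BRAF and selected arrays in base medium lay below all EV arrays in that medium, whereas in ENSW medium selected line 1 lay among the EV lines.

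In the fit that did not pair the media of a line, Fgf15 was not called between media in any type, unlike the transporters in EV organoids. The base minus ENSW difference was 1.45 ± 1.40 in EV organoids (adjusted p = 0.439), higher in 3 of 3 lines, and -0.09 ± 1.40 in BRAF organoids (adjusted p = 0.985). EV lines 1, 2 and 3 gave 1.16, 1.88 and 1.31, and the SE holds the spread in level between lines. In base medium selected organoids, with line 1 alone well above background, were lower than EV organoids (adjusted p = 0.0060). The log2 difference was -5.31 in the fit, -2.85 in the authors' deposited values and -2.01 with normexp. BRAF organoids differed by -3.85 ± 1.40 (adjusted p = 0.0497, with -2.49 and -1.66 in those alternatives), a call that was lost without 11 of the 18 arrays, up to 0.160 without EV line 3 in base medium. It held without EV line 2 in either medium, selected line 1 in either medium, selected line 3 in ENSW medium, BRAF line 2 in ENSW medium or BRAF line 3 in base medium. It was also lost with no filter (0.0674), with the mean of all probes (0.0501) and with slide as a random block (0.0727). In ENSW medium the selected minus EV difference was -3.04 ± 1.40 (adjusted p = 0.157). With line number as a block it was called (adjusted p = 0.0454), as it was without selected line 1 in ENSW medium (-4.77, 0.0303). The probe lies at chr7:152086371-152086430, plus strand, mm9.

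**Figure D2:**
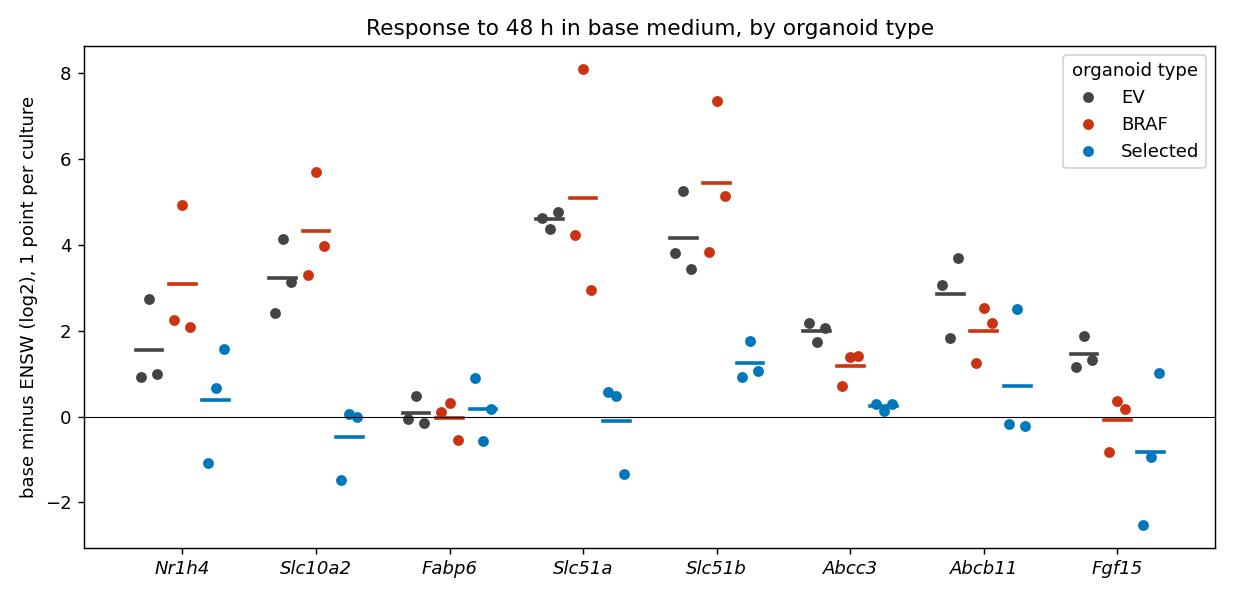
Base minus ENSW difference (log2) for the 8 genes tested, with 1 point per culture and a bar for the mean of 3 cultures, coloured by organoid type. For Slc51a, Slc51b and Slc10a2 all EV and BRAF cultures lie above 2, and the selected cultures lie between -1.48 and 1.76. Of the selected readings of these genes, only that of Slc51b in line 2 on base medium was well above background.

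Taking the genes as a group, 5 of the 8 rose in EV organoids on base medium, where 23.5% of all genes tested rose and 42.2% changed either way. In BRAF organoids 3 of 8 rose, where 1.06% of all genes rose and 1.64% changed. In selected organoids 0 of 8 were called, where 0.00466% of all genes were called, and 0 of 8 had an unadjusted p under 0.05 in limma. Of these genes, Nr1h4, Slc10a2 and Slc51a were not well above background on any selected array. Slc51b and Abcb11 were well above background there only in line 2 on base medium, and Fgf15 only in line 1. For these genes a change between media in selected organoids could not be sized. The median base minus ENSW difference of the 8 genes was 2.43 in EV, 2.54 in BRAF and 0.20 in selected organoids, against 0.19, 0.06 and 0.00 over all genes.

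The test of whether the response to base medium differed between types was made without pairing the media of a line. It called 0 of the 8 genes for BRAF minus EV (3.35% of all genes called), selected minus EV (24.2%) and selected minus BRAF (0.0%). Unadjusted p values under 0.05 numbered 0, 3 and 4. The nearest to a call was Slc10a2, whose response in selected organoids was lower than in EV organoids by 3.71 on the log2 scale, -3.71 ± 1.34 (adjusted p = 0.0584). Its 95% interval ran from -6.59 to -0.84. In selected organoids Slc10a2 and Slc51a were not well above background on any array, and Slc51b and Abcb11 only in line 2 on base medium. For these genes a difference in response from selected organoids depends on dim readings and has no sure size. A random block for the culture, in which both media of a line are paired, called 5 genes for selected minus EV (Slc10a2 0.0033, Slc51a 0.0120, Slc51b 0.0116, Abcc3 0.0088 and Abcb11 0.0334). Of all 21457 genes it called 9256 there. With the same block Slc10a2 (0.0219) and Slc51b (0.0314) were called for selected minus BRAF, beside 338 of all 21457 genes. Without EV line 2 in base medium the selected minus EV difference was called for Slc10a2 (-4.35, 0.0334), Slc51a (-6.24, 0.0243) and Slc51b (-3.47, 0.0490). The same 3 genes were called without EV line 3 in ENSW medium (0.0237, 0.0498 and 0.0344). Slc51b was also called with normexp (-3.38, 0.0046) and, with Abcb11 (-1.17, 0.0465), in the authors' deposited values (-3.38, 0.0125). A random block for slide called Slc10a2 (0.0465). It was also called without BRAF line 2 in base medium (0.0406), Abcc3 without selected line 1 in ENSW medium (0.0217) and Abcb11 without selected line 2 in base medium (0.0386).

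**Figure D3:**
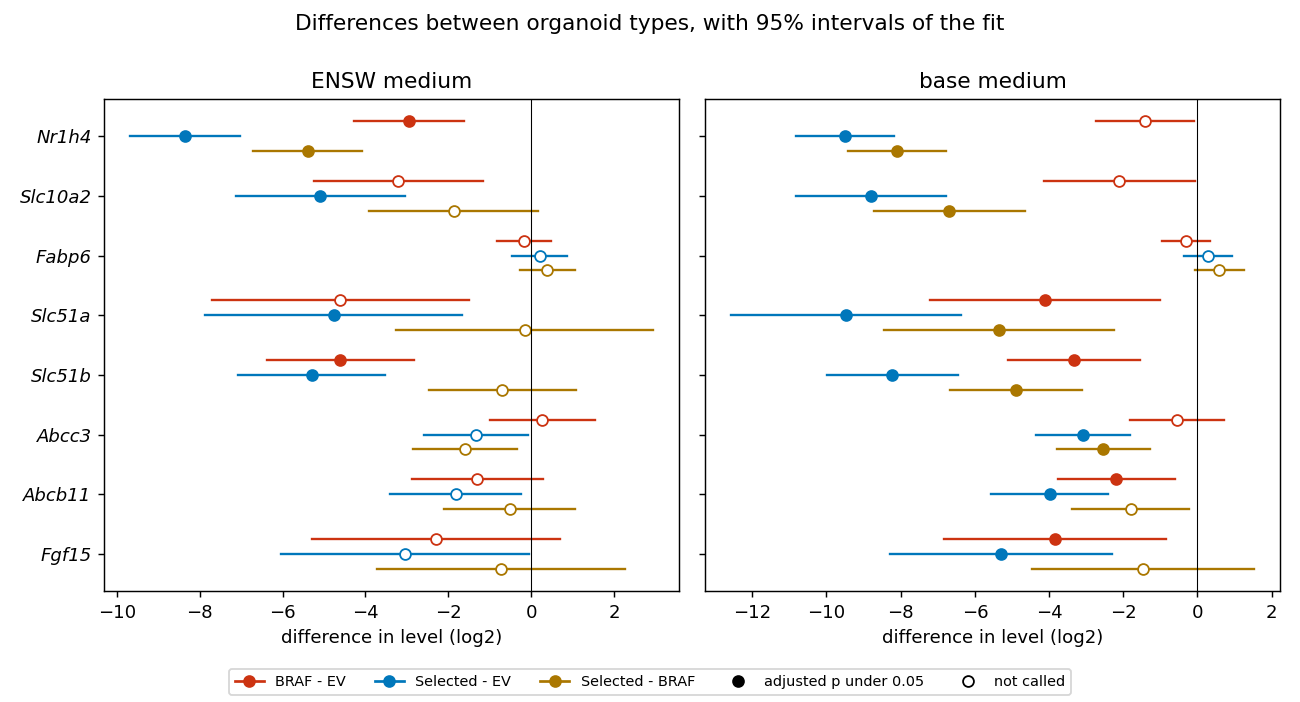
Difference in level (log2) between organoid types for the 8 genes tested, in ENSW medium on the left and base medium on the right, with the 95% interval of the fit. Filled points had an adjusted p under 0.05. In base medium 7 of the 8 selected minus EV points are filled and lie between -9.51 and -3.09, with Fabp6 at 0.28.

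Between types, the count was largest for selected against EV organoids in base medium, where 7 of the 8 genes, all but Fabp6, were lower, beside 23.2% of all genes lower and 48.1% changed. In ENSW medium 4 of 8 were lower (5.11% of all genes lower, 13.8% changed). Against BRAF organoids, selected organoids had 5 of 8 lower in base medium (5.14% of all genes lower, 9.79% changed) and 1 of 8, Nr1h4, in ENSW medium (0.452% lower, 0.606% changed). BRAF organoids against EV organoids had 2 of 8 lower in ENSW medium (1.41% lower, 6.33% changed) and 4 of 8 in base medium (13.1% lower, 31.0% changed). By arrays alone, the number of the 8 genes whose groups did not overlap between media was 5 in EV (58.8% of all genes), 6 in BRAF (21.9%) and 1 in selected organoids (5.4%). For BRAF against EV it was 6 in ENSW medium (35.7%) and 3 in base medium (41.3%), for selected against EV 6 (41.6%) and 7 (55.2%), and for selected against BRAF 4 (16.5%) and 5 (23.3%). The comparisons of BRAF and of selected organoids with EV organoids use the same EV arrays. The median selected minus EV difference of the 8 genes was -3.90 in ENSW and -6.76 in base medium, against 0.11 and 0.02 over all genes.

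The lines of a type differed in a repeated way. In EV organoids line 3 had the highest level for 9 of the 9 genes in ENSW medium and 7 in base medium, and line 2 the lowest for 6 and 7. In BRAF organoids on base medium line 2, not line 3, was highest for 7 of the 9. In ENSW medium BRAF line 2 was lowest for 5. The count includes genes not well above background in those arrays, and the lines were not tested against each other.

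The wild-type culture read close to the EV lines. Its levels in ENSW and base medium were 1.84 and 3.10 for Nr1h4, -1.12 and 2.25 for Slc10a2, -2.58 and 2.46 for Slc51a, and -1.57 and 3.15 for Slc51b. Each of these 8 values lay within the range of the 3 EV lines in the same medium. Abcc3 read 3.32, just under the EV lines in ENSW medium, and 5.73, just over them in base medium. Fgf15 read -0.67 and 1.36, above all EV lines in each medium. Abcb11 was not well above background in ENSW medium and read -3.49 in base medium. Fabp6 read -3.07 and -2.79, the second above all EV arrays. These are single arrays, so no difference from EV was tested.

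Among the other receptors and transcription factors of the pathway, 12 of 13 listed were measured. On base medium 2 rose and 1 fell in EV organoids, a smaller share than the 42.2% of all genes called there, 23.5% higher: Vdr, the vitamin D receptor, which also binds a secondary bile acid (2.63 ± 0.74), and Rxra, the partner with which FXR binds DNA (1.50 ± 0.29), rose, and Rxrb fell by 0.43 on the log2 scale (SE 0.16, adjusted p = 0.0423). The adjusted p was 0.0104 for Vdr and 8.9e-04 for Rxra. The list's median was 0.79, against 0.19 over all genes. In selected against EV organoids in base medium 8 of 12 were lower, beside 23.2% of all genes (median -3.69, against 0.02 over all genes). They included Nr5a2 (LRH-1, a factor for bile acid genes in liver and gut; -6.56 ± 0.43, adjusted p = 1.9e-07), Vdr (-6.68 ± 0.74, 7.7e-06), Nr1i2 (the xenobiotic receptor PXR; -4.66 ± 0.75, 1.6e-04) and Rxra (-2.23 ± 0.29, 2.7e-05). In ENSW medium 6 were lower and 1 higher, beside 5.11% of all genes lower and 13.8% called, with Hnf4a, which maintains epithelial gene expression, among those lower (-3.44 ± 0.62, adjusted p = 0.0035). Hnf4a was also lower in selected than in BRAF organoids on base medium (-3.16 ± 0.62, adjusted p = 0.0068). In BRAF against EV organoids in ENSW medium, where 1.41% of all genes were lower and 6.33% were called, 2 were lower, Vdr (-4.62 ± 0.74, adjusted p = 0.0032) and Nr5a2 (-2.14 ± 0.43, 0.0119), and Rxrg was higher (0.69 ± 0.18, 0.0398). In base medium 4 were lower, beside 13.1% of all genes. Gpbar1, the cell-surface bile acid receptor TGR5, was well above background on all 18 arrays, with group means from -1.15 to 0.12, and was called in none of the 12 contrasts.

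**Figure D4:**
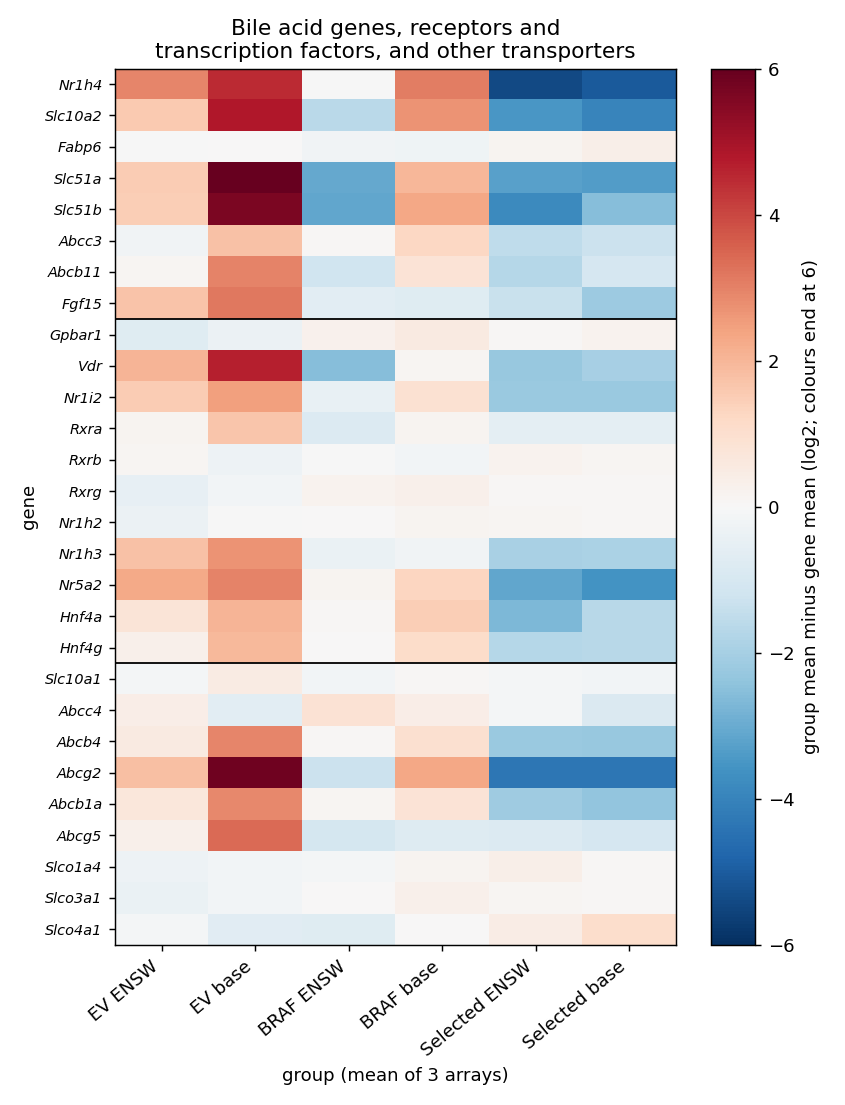
Mean level of each group minus the mean of the 6 group means (log2, colours end at 6) for the 8 bile acid genes tested (top block), listed receptors and transcription factors (middle) and the listed other transporters (bottom). Abcg2 runs from high in EV organoids on base medium to low in selected organoids, as Slc51a does. Vdr is also highest in EV organoids on base medium but lowest in BRAF organoids in ENSW medium. Fabp6, Rxrb, Nr1h2 and Slco3a1 are nearly even.

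Of 13 other transporters of bile acids, sterols and conjugates, 9 were measured. On base medium 4 rose and 1 fell in EV organoids, beside 23.5% of all genes higher and 42.2% called (median 0.63, against 0.19 over all genes), with Abcg2, an apical efflux pump for xenobiotics, by 4.02 ± 0.89 (adjusted p = 0.0024), Abcb4, a phospholipid pump of the bile canaliculus, by 2.39 ± 0.44 (6.3e-04) and Abcb1a, a multidrug efflux pump, by 2.17 ± 0.40 (6.0e-04). In BRAF and selected organoids 0 of 9 were called between media. In base medium 5 of 9 were lower in selected against EV organoids, beside 23.2% of all genes (median -0.66, against 0.02 over all genes), among them Abcg2 (-10.19 ± 0.89, adjusted p = 1.5e-06), Abcb4 (-5.22 ± 0.44, 1.3e-06) and Abcb1a (-5.24 ± 0.40, 5.7e-07). Abcg2 was well above background on 14 of 18 arrays, with a mean of -5.44 in selected organoids on base medium. The size of its difference from selected organoids may depend on dim readings. Abcc2 and Abcg8 were well above background on 2 and 1 of 18 arrays. Slc10a1, the sodium-dependent transporter best known from hepatocytes, had group means of 7.56 to 8.25, and it rose on base medium in EV organoids by 0.63 ± 0.13 (adjusted p = 0.0014). Of 7 hepatocyte markers, Ahsg and Hamp were well above background on 0 of 18 arrays, Alb on 1, Ttr on 2, Apoh on 4 and Serpina1a and Tat on 18.

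The genes of bile acid synthesis did not move as a group. Of 12 listed, 8 were measured, and Cyp7a1, the rate-limiting enzyme of the classical route in liver, Cyp7b1, Akr1d1 and Baat were well above background on 0 of 18 arrays. Between media 2 of 8 were called in EV organoids, beside 42.2% of all genes, 1 higher and 1 lower, Cyp46a1 (0.41 ± 0.16, adjusted p = 0.0491) and Cyp39a1 (-1.77 ± 0.48, 0.0085). Cyp8b1 was the 1 gene called in BRAF against EV organoids, higher in ENSW (1.06 ± 0.28, adjusted p = 0.0403) and base medium (0.92 ± 0.28, 0.0233). In base medium 1 was higher in selected against EV organoids, Cyp39a1 (1.84 ± 0.48, adjusted p = 0.0056). In the receptor complex for Fgf15, Fgfr4 was well above background on 18 arrays and its co-receptor Klb on 3, and 0 of the 3 measured genes of that list were called in any of the 9 comparisons between pairs of groups.

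All 11 listed other genes known as FXR targets in liver or intestine were measured. In EV organoids between media 3 of 11 were called, a smaller share than the 42.2% of all genes. On base medium Apoc2 (3.19 ± 0.85, adjusted p = 0.0080) and Insig2 (1.31 ± 0.18, 7.5e-05) rose in EV organoids, and Scarb1 fell by 2.99 on the log2 scale (SE 0.29, adjusted p = 9.7e-06). In base medium selected organoids had 4 of 11 higher and 4 lower than EV organoids, beside 48.1% of all genes called, with Scarb1 (3.41 ± 0.29, adjusted p = 1.4e-06) and Fetub (2.95 ± 0.70, 0.0030) higher and Insig2 lower (-1.52 ± 0.18, 1.2e-05). The list's median there was -0.71, against -6.76 for the 8 bile acid genes.

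Markers of mature colonocytes and of proliferation moved in the same comparisons, and their part in the results was not tested. Of 11 measured colonocyte markers, 9 rose in EV (23.5% of all genes) and 5 in BRAF organoids (1.06%) on base medium and 0 in selected organoids. In base medium 9 were lower in selected against EV (23.2% of all genes), 8 in selected against BRAF (5.14%) and 7 in BRAF against EV organoids (13.1%). Guca2a, the precursor of guanylin, differed by -12.63 ± 0.81 between selected and EV organoids in base medium (adjusted p = 1.5e-07). The summed linear level of the 11 markers, in units of the array's 75th percentile, was 1523 to 2854 in EV and 263 to 725 in BRAF organoids on base medium, 50.1 to 106 in selected organoids on base medium, and 133 to 423, 106 to 129 and 50.4 to 74.3 in ENSW medium. Slc37a2, the only listed marker not measured, was well above background on 0 of 18 arrays. Of 10 proliferation genes, 10 fell in EV organoids on base medium, where 42.2% of all genes were called, and 0 were called in BRAF or selected organoids. Their summed level was 6.20 to 13.2 in EV, 26.4 to 50.6 in BRAF and 80.0 to 125 in selected organoids on base medium, and 102 to 114, 46.6 to 108 and 78.2 to 90.1 in ENSW medium. Small-intestine markers had 10 of 12 measured, with 2 called higher in EV organoids on base medium, no larger a share than the 23.5% of all genes, Rbp2 (4.87 ± 1.05, adjusted p = 0.0020) and Enpep (5.54 ± 1.69, 0.0171), and 4 were lower in selected against EV organoids in that medium, beside 23.2% of all genes. Their summed level was 21.7 to 86.5 in EV organoids on base medium, 17.3 to 20.0 in ENSW medium, 7.64 to 23.7 over all BRAF arrays and 1.36 to 50.5 over all selected arrays. A sum weighs each probe by its brightness, and Mgam made up most of this one outside EV organoids on base medium. Without Mgam it was 0.63 to 51.8 in EV organoids on base medium and 0.33 to 2.44 in ENSW medium, and it stayed between 0.25 and 0.62 on all BRAF and selected arrays.

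The genes whose pattern over the 18 arrays came nearest to each member were found by the root mean square (RMS) difference of centred log2 levels, among 16099 genes with a symbol, as a description of arrays that share slides and lines. Nearest to Nr1h4 were Mettl7b (0.79), Guca2b, the precursor of uroguanylin (0.89), and Gm5485 (0.90), where the median over all genes was 4.03. Nearest to Slc10a2 were Myo1a, a motor of the microvillus (0.88), A1cf, a cofactor of mRNA editing (0.89), and Creb3l3, a transcription factor of lipid metabolism (1.02). Slc51b (1.02) was the gene nearest to Slc51a, followed by Alpi, an intestinal alkaline phosphatase (1.17), and Slc3a1, an amino acid transporter subunit (1.20). Seen from Slc51b, Alpi was nearest (0.80), then Btnl7-ps (0.94) and Slc51a (1.02), and Slc10a2 was the fourth (1.03). Nearest to Abcc3 were Cdh17, an intestinal cadherin (0.37), Ifngr1, an interferon gamma receptor subunit (0.46), and Emp1 (0.47). Nearest to Fgf15 were Gramd1b (0.87), Slc5a1, the sodium-glucose transporter (1.02), and Gm14207 (1.09). For Fabp6, whose levels hardly varied, they were H3c11 (0.26), Wdfy3 (0.26) and Zfp668 (0.27), against a median of 0.61 over all genes.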

How the data were processed

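RNA from 20 organoid cultures was measured on single-colour Agilent arrays with 60-base probes. The fluorescence intensity of each spot was extracted by the authors with Feature Extraction 10.7.3.1, per the file headers, and the background-subtracted processed intensity was used here. The authors also deposited a log2 value per probe, used as an alternative. Its columns ranked probes as the median signal did. limma is named in the submitters' processing notes, and other steps are not given in the sources used here.

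Outlier spots (2747 over 20 arrays) and 1377 control spots per array were left out, and 0 spots were saturated. Processed intensities were put on the log2 scale, each array's 75th percentile was subtracted, and spots of a probe were averaged. A probe was tested if well above background on at least 3 of 18 arrays. The brightest such probe stood for its gene, and names were brought up to date through RefSeq. Group means were fitted with limma 3.58.1 (R 4.3.3, lmFit and eBayes, 12 residual degrees of freedom, 12 contrasts). Calls were made below an adjusted p of 0.05 (Benjamini-Hochberg, 21457 genes). The p-values measure the spread between 3 numbered lines per type, which the labels do not tie to separate mice, and 3 arrays per group limit the precision. Per the labels, arrays of 1 number come from 1 line, but the fit reported here did not use this pairing. The culture as a random block and line number as a term were alternatives. Between media of 1 culture, same-numbered deviations correlated at 0.422 to 0.874, and over all pairs of groups the lowest correlation was -0.081.

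The genes, the 12 lists (121 genes) and the alternatives were chosen with earlier results of these data known. All 9 genes are named, with up to 4 called genes per list and contrast by smallest adjusted p, and 3 nearest genes for members well above background on at least 9 arrays. Scripts were tested on simulated data. Plots were drawn with matplotlib 3.10.9 and tables made with pandas 2.3.3 and numpy 2.4.6 under Python 3.11.15. Sequences are from RefSeq tables of GRCm38.p6, and probe coordinates (mm9) were taken as deposited. No protein sequence was used here. Results for some listed genes are not reported here, although counts over their lists include them.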

Additional observations from a re-analysis of the deposited data

Results flagged for a closer look

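The response to base medium differed between organoid types for 7 genes of the pathway lists, by limma's test of the difference with Benjamini-Hochberg adjustment over all genes. For selected minus EV these were 7 of the 43 measured genes of 5 lists, or 16.3%, a smaller share than the 24.2% of all genes called in that test. The selected minus EV difference in response was -4.06 (SE 1.25, adjusted p = 0.0303) for the efflux pump Abcg2, -2.48 (SE 0.62, 0.0103) for Abcb4, -2.42 (SE 0.56, 0.0065) for Abcb1a and -0.67 (SE 0.18, 0.0165) for Slc10a1. It was -1.51 (SE 0.41, 0.0156) for Rxra and -1.31 (SE 0.25, 0.0024) for Insig2. Scarb1, a lipoprotein receptor, differed the other way, by 3.00 (SE 0.41, 4.7e-04), and also in BRAF minus EV organoids, by 2.03 (SE 0.41, 0.0258). In the same test of selected minus EV, 10 of 10 proliferation genes and 3 of 11 colonocyte markers were called, and their part in these differences was not tested.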

How the results depend on the processing

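Each result was recomputed under 10 other settings, without each of the 18 arrays and, in fits added after seeing the data, without each of the 9 cultures. The 7 calls of selected against EV organoids in base medium held in each of these that gave a value. Slide as a fixed term gave no value for the 4 comparisons of a type with EV organoids. Without 1 array or culture, the number of the 8 genes called ranged from 3 to 6 for EV organoids between media, 0 to 4 for BRAF organoids between media and 0 to 0 for selected organoids. It ranged from 0 to 4 for BRAF against EV organoids in ENSW medium and 1 to 5 in base medium, from 3 to 4 for selected against EV organoids in ENSW medium and 7 to 7 in base medium, and from 1 to 1 and 3 to 5 for selected against BRAF organoids in ENSW and base medium. For the difference in response it ranged from 0 to 0 for BRAF minus EV, 0 to 3 for selected minus EV and 0 to 0 for selected minus BRAF.

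Counts in brackets are those over all 21457 genes at the same setting. The normexp background correction gave 1 call for BRAF organoids between media (371). In ENSW medium it gave 1 for BRAF against EV organoids (1039), 1 for selected against EV organoids (1921) and 0 for selected against BRAF organoids (83). It gave 1 for the response of selected minus EV organoids (4614). The culture as a random block gave 6 calls for BRAF organoids between media (4089). For the response it gave 5 for selected minus EV (9256) and 2 for selected minus BRAF (338). Slide as a fixed term gave 1 call for BRAF organoids between media (522) and 2 for selected against BRAF organoids in base medium (1335). For BRAF against EV organoids in base medium, no filter gave 1 call (6041, of 31473 genes) and slide as a random block 1 (6204). For the response of selected minus EV, the authors' deposited values gave 2 calls (5119) and slide as a random block 1 (6103). Ppara turned its sign when its probes were averaged, from 0.62 to -2.24 in BRAF against EV organoids in base medium and from 0.54 to -0.60 in selected against EV organoids in ENSW medium, since its probes disagree. The replicate block, with line number as a term, added Fgf15 in selected against EV organoids in ENSW medium (adjusted p = 0.0454) and changed no other call of the 8 genes. With that block the number of all genes called was 615 for BRAF organoids between media, 242 for selected against BRAF organoids in ENSW medium and 1349 for the response of BRAF minus EV organoids. Over all 37 alternatives, left-out arrays and cultures included, the number of all genes called ranged from 5145 to 12523 (9047 as reported) for EV organoids between media, 0 to 4089 (351) for BRAF organoids between media, 1 to 3 (1) for selected organoids between media, 299 to 1920 (1358) and 3907 to 7497 (6641) for BRAF against EV organoids in ENSW and base medium, 940 to 3709 (2960) and 8240 to 10980 (10326) for selected against EV organoids, and 47 to 416 (130) and 838 to 3360 (2100) for selected against BRAF organoids. For the difference in response it ranged from 20 to 4276 (718) for BRAF minus EV, 2934 to 9256 (5193) for selected minus EV and 0 to 338 (0) for selected minus BRAF. The causes of these changes were not tested. Readings not well above background give bounds on group means, which are not confidence limits, and no size.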
